A study of Mus musculus with 16 samples.

Results

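The genes described here are the muscle growth inhibitor myostatin, the proteins that bind it or resemble those binders, and the receptors and the close ligand that share its pathway: Mstn, Inhba, Fst, Fstl1, Fstl3, Acvr2a, Acvr2b and Acvr1b. They were chosen by symbol, not by a threshold on measured values, and every array probe carrying one of these symbols was taken with its detection p-value. Of the 8 genes, 7 had a probe among 16593 genes with a symbol, each of these had exactly 1 probe, and 6 passed the detection filter and were tested. Fstl3 was matched by symbol, gene identifier and accession to no probe and was not analysed here.

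Myostatin is a secreted ligand of the transforming growth factor beta family that skeletal muscle makes and that restrains its own growth. It binds the type II receptors encoded by Acvr2b and Acvr2a, which recruit a type I receptor such as that of Acvr1b, and the complex phosphorylates the transcription factors Smad2 and Smad3. Activin A, a dimer of the subunit encoded by Inhba, uses the same receptors, while follistatin, encoded by Fst, and the related Fstl3 product bind both ligands outside the cell and keep them from the receptors. Fstl1 encodes a secreted glycoprotein with a follistatin-like domain that is known from mesenchymal cells and muscle.

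RNA came from the gastrocnemius, a calf muscle, of B6C3F1/J mice, with 1 Illumina bead array for each of 16 animals. Wild-type animals received vehicle (4 mice) or 4b (5 mice), and N17182Q transgenic animals likewise received vehicle (4 mice) or 4b (3 mice). The compound 4b inhibits histone deacetylases, enzymes that remove acetyl groups from histones. The N17182Q transgene is a model of Huntington's disease in which a prion promoter drives a shortened mutant huntingtin, so the fragment is made in many tissues and not in muscle alone. All 4 groups share strain and tissue, and the labels leave dose, duration and age unstated. A Y-linked transcript (Eif2s3y read above Xist) was present in 2 of 4 wild-type animals with vehicle and 2 of 5 with 4b. In transgenic animals it was present in 3 of 4 with vehicle and 1 of 3 with 4b, so the split was uneven.

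Whole-series checks bear on what follows. Between 42.7% and 50.3% of probes were detected on an array. All 10 of 10 skeletal muscle markers were tested, and their summed normalised intensity lay between 295000 and 334000 on all 16 arrays. In wild-type mice it was 318000 to 334000 with vehicle and 315000 to 334000 with 4b. The transgenic ranges reached lower, 295000 to 330000 with vehicle and 295000 to 315000 with 4b. Prnp, whose promoter drives the transgene, was higher in transgenic mice by 0.83 ± 0.12 log2 units (SE, limma adjusted p = 2e-04), with no overlap between 7 transgenic and 9 wild-type arrays. Its level was not alike in the transgenic groups, at 14.27 to 15.09 with vehicle and 13.99 to 14.11 with 4b. Such a separation in the lower direction held in 3.73% of all rows. The probe for mouse Htt says nothing on the transgene. Lymphocyte markers stood above the mean of wild-type vehicle arrays by more than 0.5 log2 units on 6 arrays: 1 wild-type with vehicle, 2 wild-type with 4b, 1 transgenic with vehicle and 2 transgenic with 4b.

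The 2 promoters shown here belong to genes that moved in opposite directions in mice given 4b: Fstl1, which was lower in transgenic muscle, and Acvr1b, which was higher. Each is the 250 bases before the annotated gene start, 5′ to 3′ on the plus strand, from RefSeq (GRCm38.p6). The Fstl1 window is chr16:37776805-37777054 and the Acvr1b window is chr15:101173822-101174071. Capitals mark GC boxes (GGGCGG) and E-boxes (CANNTG), both read on either strand.
Fstl1: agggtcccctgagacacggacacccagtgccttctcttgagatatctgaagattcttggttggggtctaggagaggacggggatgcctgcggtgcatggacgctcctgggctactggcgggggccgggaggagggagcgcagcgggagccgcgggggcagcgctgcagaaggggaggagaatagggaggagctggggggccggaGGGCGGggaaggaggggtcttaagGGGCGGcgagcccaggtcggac
Acvr1b: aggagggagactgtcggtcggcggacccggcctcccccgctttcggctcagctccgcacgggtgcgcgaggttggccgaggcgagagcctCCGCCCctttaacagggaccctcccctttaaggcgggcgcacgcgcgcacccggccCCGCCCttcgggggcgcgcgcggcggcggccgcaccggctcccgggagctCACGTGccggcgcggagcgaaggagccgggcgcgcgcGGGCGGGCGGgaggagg

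The Fstl1 window held 2 GC boxes and no E-box. The Acvr1b window held 4 GC boxes, of which a neighbouring pair overlaps, and 1 E-box. Neither held a TATA box (TATAAA), an AP-1 site (TGANTCA) or a CAGA box (CAGACA). Among 32841 RefSeq windows of the same length, 32.7% held a GC box, 66.2% an E-box, 12.4% a TATA box, 6.75% an AP-1 site and 17.1% a CAGA box. The Acvr1b window had 42 CG steps and the Fstl1 window 16, against a median of 6 and an upper quartile of 16 over all windows. By CG steps the Acvr1b window was unusual, since 99.1% of windows held fewer. Holding at least 1 GC box is not rare, but the share of windows with 2 or 4 was not counted. RefSeq windows were also matched for Mstn, Fstl3, Acvr2a, Acvr2b and Inhba. Those of Acvr2b and Inhba lead up to a start that lies 595 and 7595 bases inside the annotated gene, so they are not shown.

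In transgenic muscle Fstl1 was lower than in wild-type muscle with either treatment, and it was the member with the largest difference. Inhba was lower, and the receptor genes Acvr1b and Acvr2b were higher, in transgenic mice when both genotypes had been given 4b. Fst and Acvr2a passed no test in the main analysis, and myostatin itself was not detected on any array. None of the 6 tested genes passed the test of 4b against vehicle within either genotype. Levels below are log2 normalised intensities, that is, intensities corrected for background, put on the log2 scale and set to a common distribution. Calls were made where the limma p-value, two-sided and adjusted by Benjamini-Hochberg over 10295 rows, was under 0.05.

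**Figure D1:**
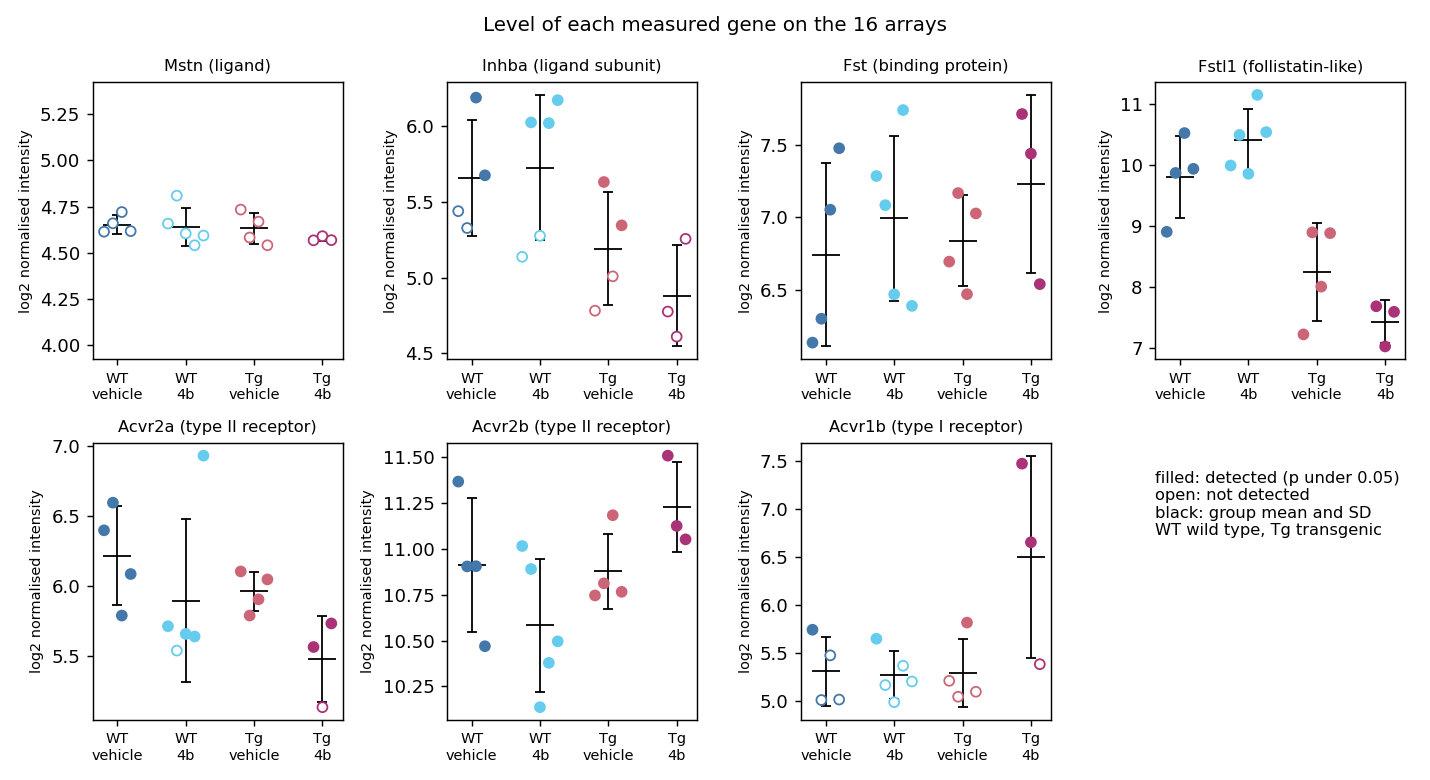
Log2 normalised intensity (y axis) of the 7 genes with a probe on each of the 16 arrays, by genotype and treatment (x axis). Filled points were detected at p under 0.05, open points were not, and black bars give the group mean and SD. Every Mstn point is open, and the 7 transgenic Fstl1 points all lie below the 9 wild-type points.

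Of the ligands, myostatin gave no level above background. The Mstn probe read linear intensities of 107.5, 102.8, 116.5 and 113.3 in wild-type mice with vehicle and of 110.9, 119, 105.1, 101.6 and 102 in wild-type mice with 4b. In transgenic mice its intensities were 123.5, 110, 116.2 and 106.2 with vehicle and 111.8, 115.9 and 108.3 with 4b. Its detection p-values lay between 0.322 and 0.888, so all 16 arrays were at background and the groups overlapped. Mstn therefore failed the filter and entered no test. When the filter was dropped, its fitted differences were between -0.07 and -0.01 log2 units and no adjusted p was below 0.642 (limma). These arrays therefore give no order of the groups for Mstn, and no second probe was there to read the transcript.

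Inhba, the activin subunit gene, was dim. With vehicle the wild-type log2 levels were 5.44, 5.33, 6.19 and 5.68, of which the last 2 were detected. With 4b the wild-type levels were 5.14, 6.03, 5.28, 6.02 and 6.17, and 3 of 5 were detected. The undetected wild-type arrays thus lay at 5.14 to 5.44 and the detected ones at 5.68 to 6.19. In transgenic mice the levels were 4.78, 5.63, 5.01 and 5.35 with vehicle, with 2 of 4 detected. They were 4.78, 4.61 and 5.26 with 4b, and 0 of 3 were detected. The transgenic 4b arrays lay low, but the highest of them was above the lowest wild-type 4b array, so the groups overlapped.

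In mice given 4b, Inhba was lower in transgenic muscle by 0.85 ± 0.28 log2 units (SE, limma adjusted p = 0.0364, difference -0.85). Because it was above background on no transgenic 4b array, the difference is stated as at least 1.22-fold. With no background correction, as in the authors' values, it was -0.35 with 4b (limma adjusted p = 0.0374) and -0.27 averaged (adjusted p = 0.0222). With a larger background offset of 50 the 4b call was lost (-0.47, limma adjusted p = 0.053). The averaged call held with that offset (-0.36, adjusted p = 0.0282). With vehicle the difference was -0.47 ± 0.27 and did not pass (limma adjusted p = 0.354). Averaged over both treatments it was -0.66 ± 0.20 (limma adjusted p = 0.0187, exact permutation within treatments p = 0.00816, two-sided). With 4b the call was lost when any of WT 4b replicates 2, 4 and 5 or transgenic 4b replicates 1 and 2 was left out, with differences of -0.79 to -0.71 and adjusted p from 0.0719 to 0.152. Averaged, it was lost without transgenic 4b replicate 2 (-0.59, adjusted p = 0.0576).

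Of the binding proteins, Fst, the follistatin gene, was detected on 16 of 16 arrays. Its levels were 6.14, 6.31, 7.05 and 7.47 in wild-type mice with vehicle and 7.28, 7.08, 6.47, 7.74 and 6.39 in wild-type mice with 4b. In transgenic mice they were 6.70, 7.17, 6.47 and 7.03 with vehicle and 7.71, 7.44 and 6.54 with 4b. All 4 groups overlapped, and each spanned a good part of the whole range. The genotype difference was 0.10 ± 0.35 (SE) with vehicle, with a 95% interval of -0.65 to 0.85. With 4b it was 0.24 ± 0.36, with an interval of -0.54 to 1.01. Neither passed (limma adjusted p = 0.907 and 0.674), and the intervals still admit changes of more than 0.5 log2 units either way.

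Fstl1 was detected on all 16 arrays. Its levels were 8.90, 9.86, 10.52 and 9.93 in wild-type mice with vehicle and 9.98, 10.49, 9.85, 11.14 and 10.53 in wild-type mice with 4b. In transgenic mice they were 7.22, 8.89, 8.0 and 8.88 with vehicle and 7.68, 7.02 and 7.59 with 4b. The transgenic arrays formed the lower end throughout: the highest of them, with vehicle, lay just under the lowest wild-type array, also with vehicle. Over all rows tested, 2.8% had 7 transgenic arrays wholly below the 9 wild-type arrays, 6.56% had transgenic wholly below wild type with vehicle and 14% with 4b.

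In numbers, Fstl1 was 2.94-fold lower in transgenic mice with vehicle (-1.56 ± 0.40 log2 units, SE, limma adjusted p = 0.0364). With 4b it was 7.84-fold lower in transgenic mice (-2.97 ± 0.41, limma adjusted p = 0.000495). Averaged over treatments the difference was -2.26 ± 0.29, or 4.80-fold (limma adjusted p = 0.000102). By exact permutation of genotype within treatments p was 0.000255, the smallest that 3920 divisions can give. The order of group means was wild type with 4b at 10.40 ± 0.51 (SD, n = 5), wild type with vehicle at 9.80 ± 0.67 (SD, n = 4), transgenic with vehicle at 8.25 ± 0.80 (SD, n = 4) and transgenic with 4b at 7.43 ± 0.36 (SD, n = 3). Neighbours of the same genotype in that order overlapped. The vehicle call was lost when WT vehicle replicate 2, 3 or 4 or transgenic vehicle replicate 1 or 3 was left out, with differences of -1.54 to -1.21 and adjusted p from 0.0581 to 0.123. It also missed under median scaling (-1.39, adjusted p = 0.0599), and 19 of 32 alternatives kept it. The 4b and averaged calls held without any single array.

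Fibroblast and collagen genes moved with Fstl1. Of 12 such markers 11 had a probe and 10 were tested, Postn being detected on 0 arrays. With vehicle 5 of 10 were lower in transgenic mice, beside 2.91% of all rows, and with 4b 9 of 10, beside 12.8%. The list medians were -1.68 and -3.10 log2 units against 0.0094 and -0.0045 over all rows. Their summed normalised intensity was 6310 to 15100 in wild-type mice with vehicle and 10400 to 26000 with 4b. In transgenic mice it was 1460 to 7850 with vehicle and 1720 to 2700 with 4b, so the 4b groups did not overlap. Across the 16 arrays Fstl1 followed the mean log2 score of these markers at r = 0.988, and within groups at r = 0.936, given as a description since all genes of an array share its RNA. For Inhba the values were 0.844 and 0.736. They were 0.594 and 0.776 with the Schwann cell and nerve score and 0.692 and 0.639 with the tendon score. For Fst the highest such r was with the macrophage score, at 0.643 and 0.735 within groups. With the score as a covariate the Fstl1 difference was -0.30 with 4b (limma adjusted p = 0.885) and -0.06 with vehicle (adjusted p = 0.944). In that fit 0 of 10295 rows were called with 4b, and the Inhba difference turned to 0.54 (adjusted p = 0.826), while Acvr1b was at 0.61 (adjusted p = 0.885) and Acvr2b at 0.12 (adjusted p = 0.967). Among other marker lists with 4b, 2 of 4 tendon, 1 of 8 macrophage and 1 of 6 adipocyte genes were lower in transgenic mice. Higher were 1 of 7 endothelial and smooth muscle genes and 1 of 10 muscle genes, and 0 of 11 lymphocyte and 0 of 4 Schwann cell genes were called. Over all rows 12.8% were lower and 15.5% higher with 4b, and the lists with 1 call lie near these shares. In whole muscle, fewer cells of a type and less RNA per cell cannot be told apart, and the part of fibroblast content in these differences was not tested.

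**Figure D2:**
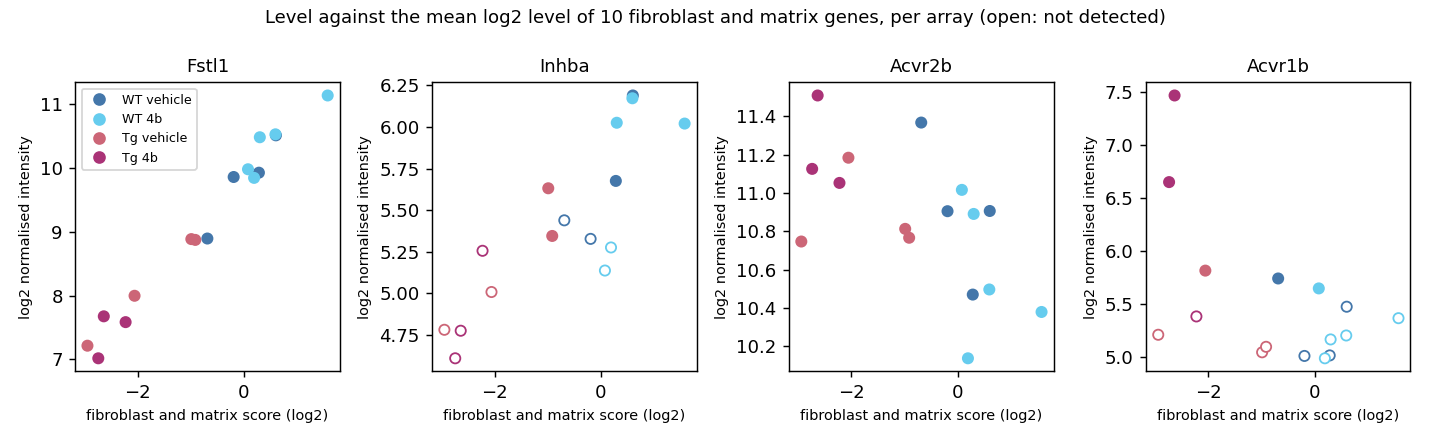
Log2 normalised intensity (y axis) of Fstl1, Inhba, Acvr2b and Acvr1b on each array against the array's score for 10 fibroblast and matrix genes (x axis, mean log2 difference from the mean of wild-type vehicle arrays). Colours give the 4 groups and open points were not detected. Fstl1 follows the score closely (r = 0.988), Inhba less so (0.844), and Acvr2b and Acvr1b run loosely the other way (-0.602 and -0.541).

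Of the type II receptors, Acvr2a was detected on 14 of 16 arrays, close to background. Its levels were 6.40, 6.60, 5.79 and 6.09 in wild-type mice with vehicle and 5.72, 5.54, 5.66, 5.64 and 6.93 in wild-type mice with 4b. In transgenic mice they were 6.11, 5.79, 5.91 and 6.05 with vehicle and 5.57, 5.14 and 5.74 with 4b. The 3 transgenic 4b arrays lay below all 4 transgenic vehicle arrays, a separation in the lower direction that 3.73% of all rows showed. They also lay below all 4 wild-type vehicle arrays, narrowly (5.74 against 5.79), a pair of groups that differ in genotype and treatment at once. The share of all rows with that second separation was not counted. The difference from transgenic vehicle arrays, -0.48 ± 0.29 (SE), did not pass (limma adjusted p = 0.468). Between genotypes given the same treatment the arrays overlapped. The genotype differences of -0.26 with vehicle and -0.42 with 4b did not pass either (limma adjusted p = 0.646 and 0.288). Of 32 alternatives for the 4b difference, 1 passed: with array weights it was -0.70 (limma adjusted p = 0.0395).

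Acvr2b, the receptor gene with high affinity for myostatin, was detected on all 16 arrays. Its levels were 11.37, 10.90, 10.91 and 10.47 in wild-type mice with vehicle and 11.02, 10.89, 10.14, 10.38 and 10.50 in wild-type mice with 4b. In transgenic mice they were 10.75, 10.81, 11.18 and 10.77 with vehicle and 11.51, 11.13 and 11.05 with 4b. The 3 transgenic 4b arrays lay above all 5 wild-type 4b arrays while the vehicle groups overlapped. Such a separation held in 17% of all rows in the higher direction.

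With 4b, Acvr2b was 1.56-fold higher in transgenic mice (0.65 ± 0.23 log2 units, SE, limma adjusted p = 0.0434). With vehicle the difference was -0.03 ± 0.22, with a 95% interval of -0.50 to 0.43. Averaged over treatments it was 0.31 ± 0.16 and did not pass (limma adjusted p = 0.15, exact permutation p = 0.117). The 4b call was lost when any 1 of 8 arrays was left out, with differences of 0.51 to 0.70 and adjusted p from 0.0522 to 0.189: WT vehicle replicates 2 and 3, WT 4b replicates 3, 4 and 5, transgenic vehicle replicate 2 and transgenic 4b replicates 1 and 2.

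Acvr1b, the type I receptor gene of activin signalling, was near background in most animals and was detected on 5 of 16 arrays. Its levels were 5.74, 5.01, 5.47 and 5.01 in wild-type mice with vehicle, where only the first was detected, and 5.64, 5.16, 4.98, 5.36 and 5.20 in wild-type mice with 4b, again with the first detected. In transgenic mice they were 5.21, 5.04, 5.81 and 5.09 with vehicle, 1 of 4 detected. With 4b they were 7.47, 6.65 and 5.38, 2 of 3 detected. Replicates 1 and 2 of the transgenic 4b group stood above every other array, and replicate 3 lay among the rest. The same 2 arrays are those of that group with a lymphocyte score over 0.5, and across the 16 arrays Acvr1b and that score had r = 0.168. Its r was larger with the tendon score (-0.797, within groups -0.654) and the skeletal muscle score (-0.623, within groups -0.379). The tendon score was -1.17 and -1.23 on those 2 arrays and 0.06 on replicate 3, and the muscle score was -0.17, -0.15 and -0.03. The part of these cell types in the Acvr1b level was not tested.

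With 4b, Acvr1b was 2.34-fold higher in transgenic mice (1.23 ± 0.35 log2 units, SE, limma adjusted p = 0.0176). It was not called with vehicle (-0.02 ± 0.34, adjusted p = 0.983) or averaged over treatments (0.61 ± 0.24, adjusted p = 0.0699, exact permutation p = 0.0605). Without transgenic 4b replicate 1 the 4b difference was 0.74 (adjusted p = 0.128), and without replicate 2 it was 1.15 (adjusted p = 0.0738). Without replicate 3 it was 1.79. The size depends on the background step, since most wild-type arrays were not detected: with no background correction, as in the authors' values, the difference was 0.54 (adjusted p = 0.0203). With the lymphocyte and adipocyte scores as covariates it was 1.01 (adjusted p = 0.137). Leaving out the 6 arrays of high lymphocyte score kept 1 transgenic 4b array, and the difference was then 0.14 (adjusted p = 0.875), with the lone array assumed to vary like the other groups. In the same fit Fstl1 differed by -3.13 (adjusted p = 0.149), Inhba by -0.82 (adjusted p = 0.347) and Acvr2b by 0.46 (adjusted p = 0.476).

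Counted together, 1 of 6 tested members was called between genotypes with vehicle, Fstl1, which was lower, beside 5.3% of all rows in either direction, 2.39% higher and 2.91% lower. With 4b, 4 of 6 were called beside 28.3% of all rows. Of these 2 were higher (15.5% of all rows) and 2 were lower (12.8%). Averaged over treatments, 2 of 6 were called, both lower, beside 33.2% in either direction, 17.9% higher and 15.4% lower, a share close to the background. With 6 genes such shares are coarse. Median scaling in place of quantile normalization turned the calls over all rows from 246 higher and 300 lower to 528 and 199 with vehicle, and from 1597 and 1314 to 2375 and 846 with 4b. The 4 members called with 4b kept their direction and passed under it. The median difference of the 6 genes was -0.15 with vehicle and -0.09 with 4b, against 0.0094 and -0.0045 over all rows.

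**Figure D3:**
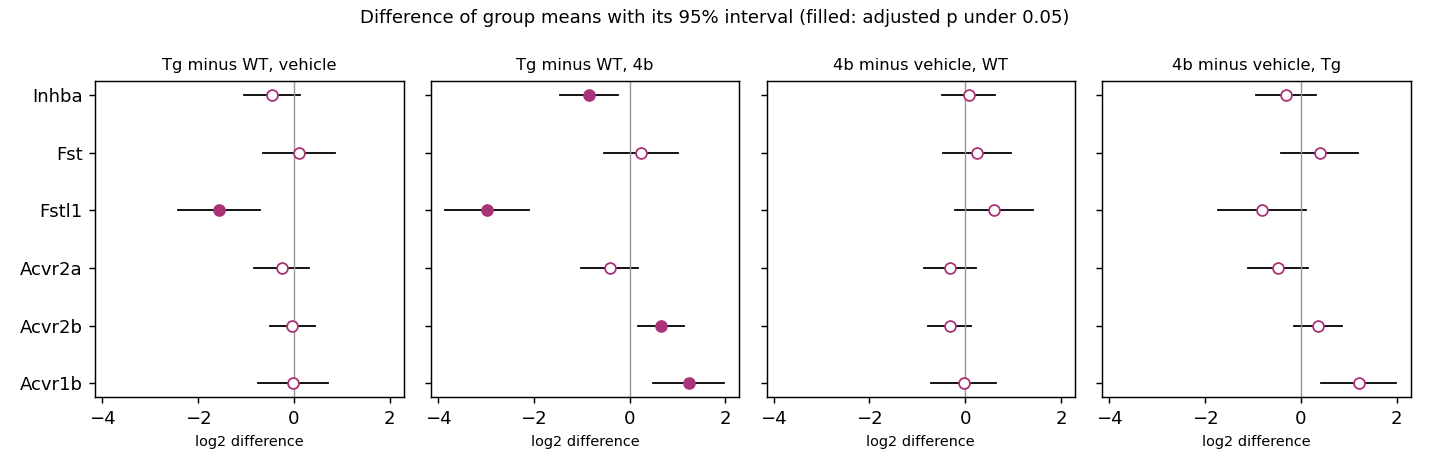
Difference of group means in log2 units (x axis) with its 95% interval for the 6 tested genes (y axis), transgenic minus wild type under each treatment and 4b minus vehicle in each genotype. Filled points passed an adjusted p of 0.05. Fstl1 is filled with vehicle (-1.56) and with 4b (-2.97), Inhba, Acvr2b and Acvr1b with 4b alone, and no point is filled in the drug comparisons.

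The effect of 4b itself was then read within each genotype. In wild-type mice 0 of 6 members were called, and 0% of all rows, although 275 of 10295 rows had an unadjusted p under 0.05. The differences ran from -0.33 for Acvr2b to 0.60 for Fstl1, each with limma adjusted p = 1. In transgenic mice 0 of 6 were called, beside 0.00971% of all rows (1 row), with 1517 at an unadjusted p under 0.05. Acvr1b had the smallest adjusted p there, with 4b above vehicle by 1.21 ± 0.37 log2 units (SE, limma adjusted p = 0.179). Fstl1 differed by -0.82 ± 0.43 (adjusted p = 0.395), Fst by 0.39, Acvr2b by 0.35 and Inhba by -0.31. The 95% interval for Fstl1 in transgenic mice ran from -1.74 to 0.10 and that in wild-type mice from -0.21 to 1.41.

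Whether 4b acted differently in the genotypes was tested by the interaction, which called 0 members and 0% of all rows, with 1039 rows at an unadjusted p under 0.05. For Fstl1 the 4b effect in transgenic mice minus that in wild-type mice was -1.41 ± 0.58 (SE, limma adjusted p = 0.458). For Acvr1b it was 1.25 ± 0.49 (adjusted p = 0.458) and for Acvr2b 0.68 ± 0.31 (adjusted p = 0.487). The calls that appear with 4b and not with vehicle are therefore not shown to differ between treatments.

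The rest of the pathway was described from 5 lists of 93 genes, of which 85 had a probe and 59 were tested. With vehicle, 0 were higher and 1 was lower. That gene was Bmp1, whose protease frees myostatin from its propeptide and trims procollagens, with a difference of -1.12 ± 0.31 (SE, limma adjusted p = 0.0465). With 4b, 12 were higher and 12 lower, beside 15.5% and 12.8% of all rows, and averaged over treatments 12 were higher and 10 lower, beside 17.9% and 15.4%. The averaged shares are close to the background. No list gene was called for 4b within a genotype or for the interaction. The median difference of the 59 genes was 0.04 with vehicle and -0.12 with 4b, against 0.0094 and -0.0045 over all rows. The counts by role that follow rest on 7 to 15 genes each and read against the same 15.5% and 12.8%, and no difference between roles was tested.

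Among 7 ligands tested with 4b, 0 were higher and 3 were lower: Tgfb2 (-1.25, limma adjusted p = 0.00309), Lefty1, an antagonist of Nodal (-1.59, adjusted p = 0.0104), and Gdf10 (-1.52, adjusted p = 0.0411). Among 9 receptors, 2 were higher, the bone morphogenetic protein receptor gene Bmpr1b (0.86, adjusted p = 0.0245) and Tgfbr1 (0.40, adjusted p = 0.0371), the other type I receptor gene that myostatin uses, and 0 were lower. Of 14 binding and processing genes, 1 was higher, Furin (1.0, adjusted p = 0.0015), a protease that cleaves ligand precursors. In the same list 5 were lower, among them Bmp1 (-1.85, adjusted p = 0.00109), the latent TGF-beta binding protein gene Ltbp4 (-1.45, adjusted p = 0.00382) and the matrix proteoglycan gene Fmod (-2.19, adjusted p = 0.00722).

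Inside the cell, 6 of 15 Smads and regulators were higher and 1 was lower with 4b. The lower gene was Smad3, which carries the myostatin signal (-1.28 ± 0.28 SE, limma adjusted p = 0.00391). Higher were Smad1, of the bone morphogenetic protein branch (0.91, adjusted p = 0.00274), the ubiquitin enzyme gene Ube2o (0.89, adjusted p = 0.00126) and the Smad corepressor gene Tgif1 (1.93, adjusted p = 0.00405). Of 14 target genes, 3 were higher and 3 lower, near the shares over all rows. Cdkn1a, a cell cycle inhibitor, was 20.9-fold higher (4.39, adjusted p = 0.000591), and the atrophy ubiquitin ligase genes Trim63 (1.65, adjusted p = 0.0101) and Fbxo32 (1.86, adjusted p = 0.04) were higher as well. Igf1, a muscle growth factor, was lower (-1.50, adjusted p = 0.017). Many pathways feed into these target genes, so their levels do not read myostatin signalling alone.

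**Figure D4:**
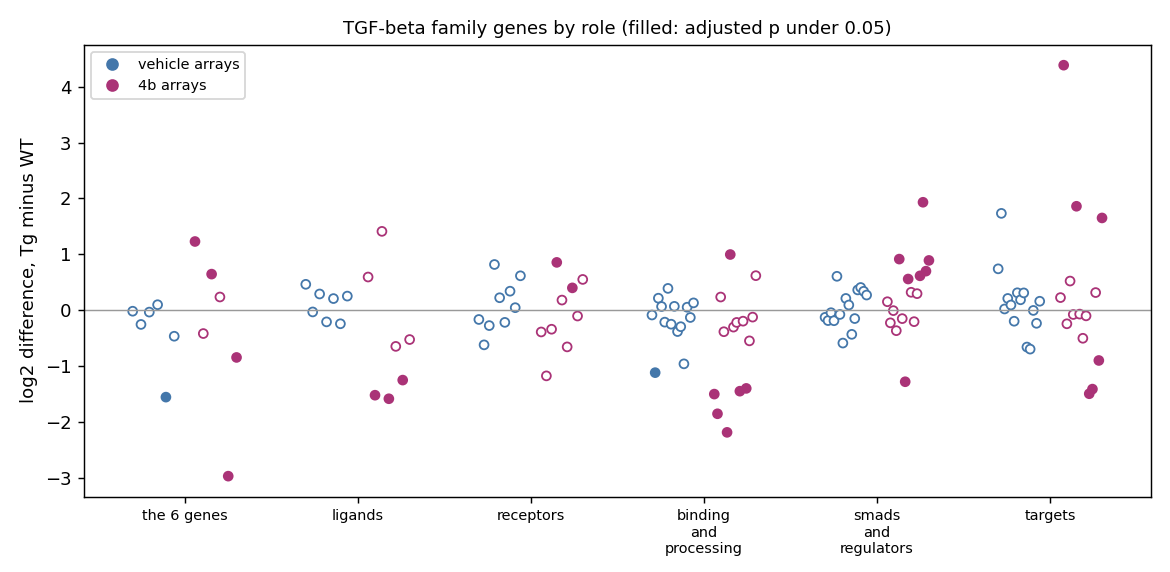
Difference between transgenic and wild-type mice in log2 units (y axis) for the 6 tested genes and 59 further pathway genes grouped by role (x axis), with vehicle (blue) and with 4b (purple). Filled points passed an adjusted p of 0.05. With vehicle the filled points are Fstl1 and Bmp1, and with 4b Cdkn1a stands highest at 4.39 and Fstl1 lowest at -2.97.

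The genes most like each member over the 16 arrays were named by Pearson's r of log2 levels, as a description with no test. For Fstl1 they were Bmp1 (0.985), Col5a1 (0.979) and Col6a1 (0.979), and within groups their r was 0.942, 0.88 and 0.912. The most opposite were Kdm4b and Hibadh, both at -0.939. For Inhba the most alike were Nid2 (0.919), Efhd1 (0.904) and Mrgprf (0.9), and the most opposite were Atad3a (-0.942) and Snrnp70 (-0.904).

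The receptor genes and Fst had other partners. For Acvr2b they were Nfe2l2 (0.873), Mknk1 (0.864) and Bcl7a (0.845), with Glb1 (-0.856) and Cds1 (-0.844) opposite. Acvr1b was most like Hnrnpll (0.912), Ociad1 (0.886) and Selp (0.882), and opposite to Sdhaf4 (-0.93) and Adk (-0.9). Acvr2a was most like Gdnf (0.83), Kdm1b (0.812) and Gpsm3 (0.809), and opposite to Pi4k2b (-0.775) and Reln (-0.765). Fst was most like Slc45a3 (0.869), Slc6a4 (0.841) and Selenop (0.81), and opposite to Nthl1 (-0.872) and Rev1 (-0.815). Of these named genes, Col5a1 and Col6a1, both most like Fstl1, belong to the fibroblast and matrix list. Fstl1 itself is not on that list.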

How the data were processed

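Total RNA from 16 gastrocnemius muscles was read on Illumina bead arrays, 1 per animal. The deposited table holds linear intensities with no normalization, per the file headers, and, for every probe on every array, a detection p-value as deposited by the authors. Log2 values of the authors form the other deposited table. They matched log2 and quantile normalization of the same intensities without background correction (largest gap 5e-09). Probe annotation was that given for the platform.

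Intensities were background-corrected with limma 3.58.1 in R 4.3.3 (normexp from detection p-values, offset 16), taken to log2 and quantile-normalised. The offset compresses differences of dim probes, and quantile normalization hides a shift shared by most genes. Of 25697 probes, 13706 with detection p under 0.05 on at least 3 arrays were kept, and the brightest probe stood for its gene (10295 rows). A limma model of 4 group means was fitted to 16 arrays (residual degrees of freedom 12). The number of animals limits the precision (median SE 0.217 with vehicle, 0.224 with 4b). No member had a second probe to compare. The 1.22-fold value for Inhba compares the bright group with a floor. On each array of the dim group, the floor is the dim probe's value or the lowest detected signal, whichever is greater. Undetected arrays of the bright group kept their own values. Exact permutation tests shuffled genotype within treatments. The fit was also run on simulated data with independent noise for each gene and array. That run does not cover variation shared by the genes of an array.

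Members, pathway lists and marker lists were chosen with earlier results of these data known. All members are named; of each list, called genes with the smallest p, at most 4 per contrast; and for likeness the 3 highest and 2 lowest correlations. Alternatives changed background, scaling, filter, probe rule, arrays, weights and covariates.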

Additional observations from a re-analysis of the deposited data

Results flagged for a closer look

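The 4b effect on Fstl1 pointed opposite ways in the genotypes. All 5 wild-type 4b arrays lay on one side of the wild-type vehicle mean and all 3 transgenic 4b arrays on the other side of the transgenic vehicle mean, and the interaction was -1.41 log2 units (limma adjusted p = 0.458), so it did not pass over all rows. One array stood apart from the rest of its group for Acvr2a, WT 4b replicate 5 at 6.93 log2 units. Another did for Acvr2b, transgenic vehicle replicate 3 at 11.18. Both were marked by the gap of Dixon's test at its 95% level, which marks about 1 in 20 groups by chance.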

How the results depend on the processing

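Of the calls above, Fstl1 with 4b held in 30 of 32 alternatives, Fstl1 averaged in 30 of 31, Fstl1 with vehicle in 19 of 32, Inhba with 4b in 21 of 32, Acvr1b with 4b in 26 of 31 and Acvr2b with 4b in 19 of 32. Acvr1b was not tested with the filter at detection p under 0.01. At that cut it was detected only on transgenic 4b replicates 1 and 2, the arrays where it was high. The number of animals and, for Inhba, Acvr1b and Acvr2a, signal close to background limit what can be read. The cause of the changes below was not tested. The alternative without the arrays of high lymphocyte score was chosen after seeing the data. No paired analysis was possible because the labels give no replicate numbers shared between groups. Median scaling moved the median of all genes to 0.12 with vehicle, 0.11 with 4b and 0.10 averaged, from 0.0094, -0.0045 and -0.0031, and with it Acvr2b averaged over treatments passed (0.51, limma adjusted p = 0.0145).

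With vehicle the members called fell from 1 to 0 under median scaling, with no filter on dim probes, with only the groups compared, with the Eif2s3y level, the lymphocyte and adipocyte scores or the fibroblast and matrix score as covariates, without the 2 animals numbered in 3 digits, and without the arrays of high lymphocyte score. With 4b they fell from 4 to 2 with no filter or only the groups compared, to 1 with lymphocyte and adipocyte scores, and to 0 with the fibroblast and matrix score or without the arrays of high lymphocyte score. Averaged, they fell from 2 to 1, 0 and 1 in the last 3 of these. Smaller steps in these counts are not listed. With 4b, Inhba alone lost its call with an offset of 50, and Acvr1b was not tested at detection p under 0.01. Leaving out some single arrays lost only Inhba or only Acvr2b. For 4b in transgenic mice, array weights called 1 member, Acvr1b. Leaving out 1 array at a time gave 0 to 1 members with vehicle, 1 to 4 with 4b, 1 to 3 averaged and 0 to 1 for 4b in transgenic mice, where the call came without transgenic 4b replicate 3. The 4b count was 1 without transgenic 4b replicate 1 or 2 and 2 without WT 4b replicate 4 or 5.

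All rows called with vehicle (546) became 124 with only the groups compared, 880 with array weights, 1049 with the share of detected probes as covariate, 206 with lymphocyte and adipocyte scores, 8 with the fibroblast and matrix score and 222 without the 2 animals, and 175 to 665 without 1 array. With 4b the 2911 became 4768 with array weights, 1233 with lymphocyte and adipocyte scores, 0 with the fibroblast and matrix score, 4 without the arrays of high lymphocyte score and 1577 to 3098 without 1 array. Averaged, the 3420 became 1421 with lymphocyte and adipocyte scores and 1 with the fibroblast and matrix score. The averaged count was 1127 without the arrays of high lymphocyte score, a fit that kept 1 transgenic 4b array. For 4b in transgenic mice the 1 row became 4 with no background correction and with the values of the authors, 3 with an offset of 50 and with lymphocyte and adipocyte scores, 1778 with array weights, 2 without the arrays of high lymphocyte score, 0 to 421 without 1 array, and 0 with median scaling, every probe, only the groups compared, and the other covariates or the 2 animals left out. The interaction gave 1 row with no filter and without the arrays of high lymphocyte score, 89 with array weights and 0 to 17 without 1 array.

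Signs turned mostly for differences that never passed. With vehicle, Fst was -0.14 with the share of detected probes and -0.048 without the 2 animals. Acvr1b was 0.11 with array weights and 0.027 with that share, and Acvr2b was 0.081 with median scaling, 0.026 with array weights, 0.041 with that share and 0.020 with Eif2s3y. With the fibroblast and matrix score, Inhba was 0.31 with vehicle, 0.54 with 4b, 0.43 averaged, -0.18 for 4b in wild-type and 0.053 in transgenic mice, Acvr2b averaged was -0.11 and Acvr1b for 4b in wild-type mice was 0.073 (0.010 with median scaling). Without the arrays of high lymphocyte score, Fst was -0.53 with 4b and -0.24 for 4b in transgenic mice, and Inhba was 0.12 for the latter. Leaving out 1 array, Fst ran from -0.10 to 0.34 with vehicle and from -0.0040 to 0.58 with 4b, Acvr1b from -0.19 to 0.13 and Acvr2b from -0.18 to 0.12 with vehicle, and in wild-type mice 4b moved Acvr1b by -0.14 to 0.11 and Inhba by -0.043 to 0.25.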
